A study of Mus musculus with 6 samples.

Results

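The D-type cyclins Ccnd1, Ccnd2 and Ccnd3 were followed through their transcription start sites in Ba/F3, a pro-B cell line of the mouse that can be made to grow without its usual cytokine by introducing an active kinase. Start sites were read by cap analysis of gene expression (CAGE), in which each sequenced tag marks the capped 5′ end of 1 RNA. A peak of tags is taken here as a start site. Whether each peak is one, also far inside a gene, was not tested. Each gene was taken as all peaks on its own strand with start and end inside a fixed window of the mm9 genome: the minus strand of chromosome 7 from 152110000 to 152128000 for Ccnd1, the minus strand of chromosome 6 from 127070000 to 127106000 for Ccnd2, and the plus strand of chromosome 17 from 47630000 to 47742000 for Ccnd3. This gave 102 of the 158966 listed peaks, of which 9 belong to Ccnd1, 24 to Ccnd2 and 69 to Ccnd3. The 3 libraries of the first group came from BALB/c-derived Ba/F3 cells with FLT3-ITD, in which a stretch of the receptor tyrosine kinase FLT3 is duplicated in tandem. The 3 libraries of the second group came from Ba/F3 cells with FLT3-ITD and D835Y, a substitution in the activation loop of that kinase, called the double mutant below. All cells were grown in RPMI-1640 with heat-inactivated serum and antibiotics, and the labels give neither a clone nor a group without FLT3-ITD. In the labels' mutation field the last digits of D835 go up by 1 from sample to sample in the double mutant, so the groups were taken from the titles. Nothing in the labels says that replicates were separate cultures, so the spread behind each p-value is that of these samples and may be technical.

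D-type cyclins are the regulatory subunits that switch on the kinases CDK4 and CDK6. The active pair phosphorylates the retinoblastoma protein, which releases E2F factors and lets a cell pass from G1 into S phase. The cyclins are short-lived proteins whose genes respond to mitogens and cytokines, and lymphoid cells are known for using Ccnd2 and Ccnd3 more than Ccnd1.

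The libraries held between 5884258 (FLT3-ITD replicate 2) and 13977941 tags (double-mutant replicate 2), so that 1 tag was worth 0.0715 to 0.170 CPM, tags per 1000000 tags of the library. Peaks with at least 1 CPM in 3 or more libraries were compared with limma on log2(CPM + 1), with Benjamini-Hochberg adjustment over all tested peaks and a threshold of 0.05. Of 19162 tested peaks 24.4% changed (14.1% up and 10.4% down in the double mutant), with a median difference of 0.05 (log2). The excess of rises depended on scaling: 2693 rose and 1985 fell as reported here, 2451 and 2456 with TMM scaling, 2434 and 2470 with RLE scaling, and 1703 and 1836 with DESeq2. The files name no genes, so the pro-B label was not checked against marker genes here.

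Ccnd2 was by far the most active D-type cyclin, Ccnd3 was a minor one and Ccnd1 had no tag in any library. Summed over its peaks, Ccnd2 stood at 119, 81.1 and 130.5 CPM with FLT3-ITD alone and at 62.7, 79.6 and 83.8 CPM in the double mutant. Ccnd3 stood at 11.0, 11.6 and 14.6 CPM, and at 13.1, 8.23 and 8.80 CPM. A CAGE tag counts 1 transcript end whatever the transcript's length, so these levels can be set side by side. The order was the same in 6 of 6 libraries, with Ccnd2 between 4.79 (double-mutant replicate 1) and 10.8 times (FLT3-ITD replicate 1) the level of Ccnd3. In bulk RNA, fewer cells with a transcript and less of it per cell cannot be told apart.

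**Figure D1:**
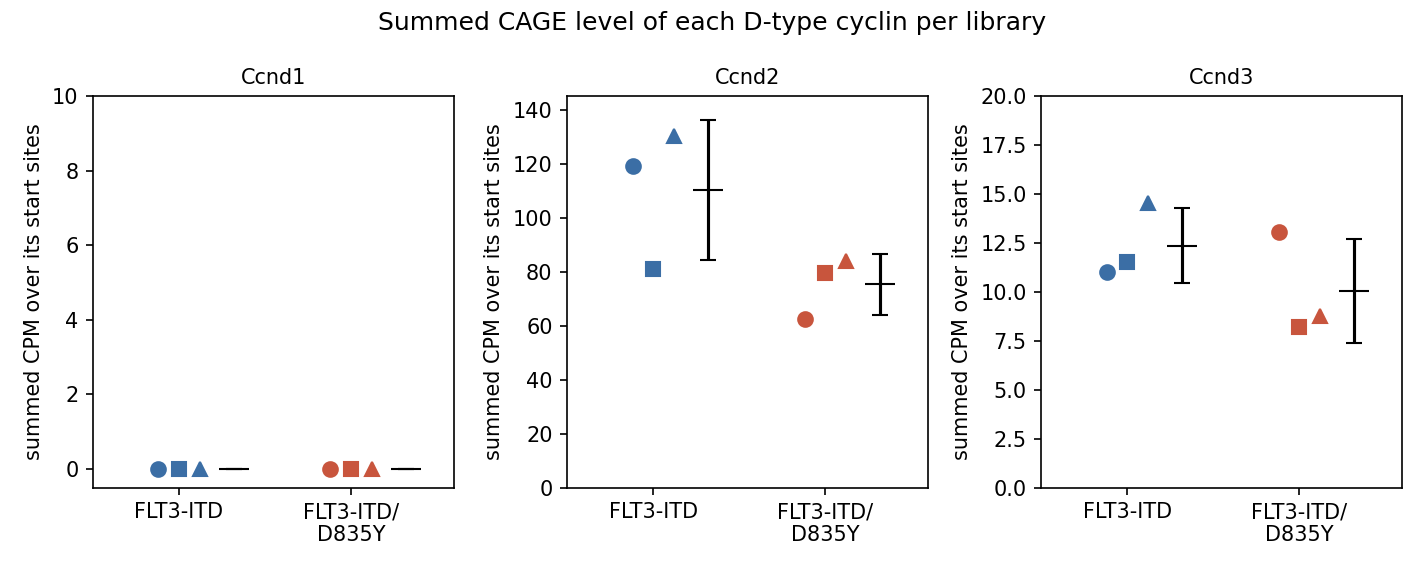
Summed CPM over the start sites of Ccnd1, Ccnd2 and Ccnd3 in each library (circle, square and triangle for replicates 1, 2 and 3), with the mean and SD of each group (n = 3) as a black bar; the axes of the panels differ. Ccnd1 is at 0 in all 6 libraries, Ccnd2 lies between 62.7 and 130.5 CPM, and the groups overlap for Ccnd2 and Ccnd3.

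Ccnd1, the D-type cyclin first known from a parathyroid tumour rearrangement, was not detected. All 9 of its peaks, among them the adjoining pair at 152125716 to 152125727 and 152125728 to 152125744, held 0 tags in every library. A count of 0 allows up to 3 tags, which is 0.109 CPM over the pooled FLT3-ITD libraries and 0.0833 CPM over the pooled double-mutant libraries, counting error only. Against that floor Ccnd2 was at least 1011-fold higher in FLT3-ITD cells and at least 904-fold higher in the double mutant, and Ccnd3 at least 113-fold and 120-fold higher. The 3 peaks on the opposite strand of the Ccnd1 window were also at 0. The nearest tested peak outside the window lay 8902 bp away. Within 500000 bp on either side 5 peaks were tested, and the most active had a mean of 33.5 CPM. Whether tags can be mapped to the Ccnd1 starts themselves was not tested.

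Ccnd2, the D-type cyclin that cytokine signalling is best known to induce in blood cells, had 1 dominant start. The 19 bp peak at 127101014 to 127101032 on the minus strand of chromosome 6 (chr6:127101014..127101032,-) held 104.5, 65.1 and 107.3 CPM with FLT3-ITD alone and 51.7, 71.5 and 72.3 CPM in the double mutant. It ranked 1735 among the 19162 tested peaks by mean level, within the most active 9.05%, and 25.3% of tested peaks were narrower. FLT3-ITD replicates 1 and 3 were above all double-mutant libraries, while FLT3-ITD replicate 2, the library with the fewest tags, was below 2 of them. The means were 92.3 ± 23.6 and 65.1 ± 11.7 CPM (SD, n = 3 each), a difference of -0.48 on the log2(CPM + 1) scale (SE 0.20, 95% interval -0.94 to -0.02), which did not pass (limma adjusted p = 0.122). Over its alternatives the adjusted p ran from 0.00757 to 0.302. It passed with no filter on low values, with DESeq2 (adjusted p = 0.0206) and without FLT3-ITD replicate 2 (-0.71, limma adjusted p = 0.0150).

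The summed level of Ccnd2 was at the edge of the threshold. It was 110.2 ± 25.9 CPM with FLT3-ITD alone and 75.4 ± 11.2 CPM in the double mutant (mean ± SD, n = 3 each), a difference of -0.52 (log2, SE 0.18, 95% interval -0.91 to -0.14) or 0.695 times the FLT3-ITD level, with a limma adjusted p of 0.0503. FLT3-ITD replicate 2, at 81.1 CPM, lay inside the range of the double mutant. Of 18 alternatives, 9 put the sum past the threshold and all gave a lower level in the double mutant, with adjusted p from 0.00187 to 0.214. The exact two-sided permutation test over the 6 libraries gave p = 0.2, where 0.1 is the smallest value that 3 against 3 can give, and 0.6 after Benjamini-Hochberg adjustment over the 6 single values tested in this way.

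The lesser starts of Ccnd2 were weak, and 3 of them passed the test as lower in the double mutant. Of the 24 peaks, 5 held no tag, 12 had tags but stayed under the filter (at most 0.787 CPM in any library) and 7 were tested. Of the 3, those at 127100681 and 127080298 reached the filter only through the FLT3-ITD libraries, so their tests after that filter are no support by themselves. They were also read from the fit with no filter on low values, which takes every peak with a tag in any library. Both were still singled out by the filter, so their values from that fit are no support by themselves either. The fit with no filter gives other adjusted p-values at the same difference. With limma the Ccnd2 sum had 0.00187 in place of 0.0503, and the Ccnd3 sum 0.363 in place of 0.261. Its smaller values for single starts are therefore not stronger evidence, and the reason for the shift was not tested. Downstream of the main start, the peak 338 bp away at 127100681 to 127100694 held 1.76, 1.70 and 2.81 CPM in FLT3-ITD and 0.671, 0.501 and 0.890 CPM in the double mutant. The groups did not overlap, which the filter fixed in advance for this peak. The difference was -0.86 (log2, SE 0.20, limma adjusted p = 0.00842, and 0.00308 with no filter). The peak 2270 bp downstream, at 127098739 to 127098762, held 2.83, 3.06 and 6.32 CPM against 1.68, 1.65 and 1.58 CPM. FLT3-ITD replicate 3 stood well above its group there. It fell by 0.88 (SE 0.24, limma adjusted p = 0.0166), and without that library the difference was -0.58 with an adjusted p of 0.0691. The peak 20703 bp downstream, at 127080298 to 127080329, held 1.66, 3.40 and 2.54 CPM against 0.923, 0.644 and 0.791 CPM, a difference of -0.96 (SE 0.21, limma adjusted p = 0.00590, and 0.000677 with no filter). The size of these differences depends on the pseudocount added before taking logs: in the order given they were -1.31, -1.11 and -1.39 with 0.25, -0.37, -0.49 and -0.44 with 4, and -1.71, -1.40 and -1.69 with edgeR on tags.

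The other 3 tested lesser starts of Ccnd2 did not pass and their groups overlapped. The peak 21696 bp downstream, at 127079307 to 127079336, held 4.10, 2.21 and 6.23 CPM in FLT3-ITD and 3.02, 1.65 and 3.66 CPM in the double mutant (-0.42, 95% interval -1.09 to 0.25, limma adjusted p = 0.346). Its difference was -0.72 without FLT3-ITD replicate 2, -0.14 without FLT3-ITD replicate 3 and -0.18 without double-mutant replicate 2, and did not pass in any of these. The neighbouring peak at 127079190 to 127079201 had means of 1.43 ± 0.41 and 0.960 ± 0.16 CPM (SD, n = 3 each; limma adjusted p = 0.288). Upstream of the main start by 1460 bp, the peak at 127102476 to 127102492 had 1.06 ± 0.50 and 0.785 ± 0.27 CPM (limma adjusted p = 0.565). In all, 3 of the 7 tested Ccnd2 peaks were lower and 0 higher, where 10.4% of all tested peaks were lower (1985, or 2456 after TMM scaling). Given how 2 of the 3 reached the filter, this count is a description and no support for a fall of the gene. A difference between groups that do not overlap, with FLT3-ITD higher, was seen at 3 of the 7 and at 17.6% of all tested peaks. For the same 2 peaks the filter itself fixed that the groups do not overlap, so this count is no support either.

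**Figure D2:**
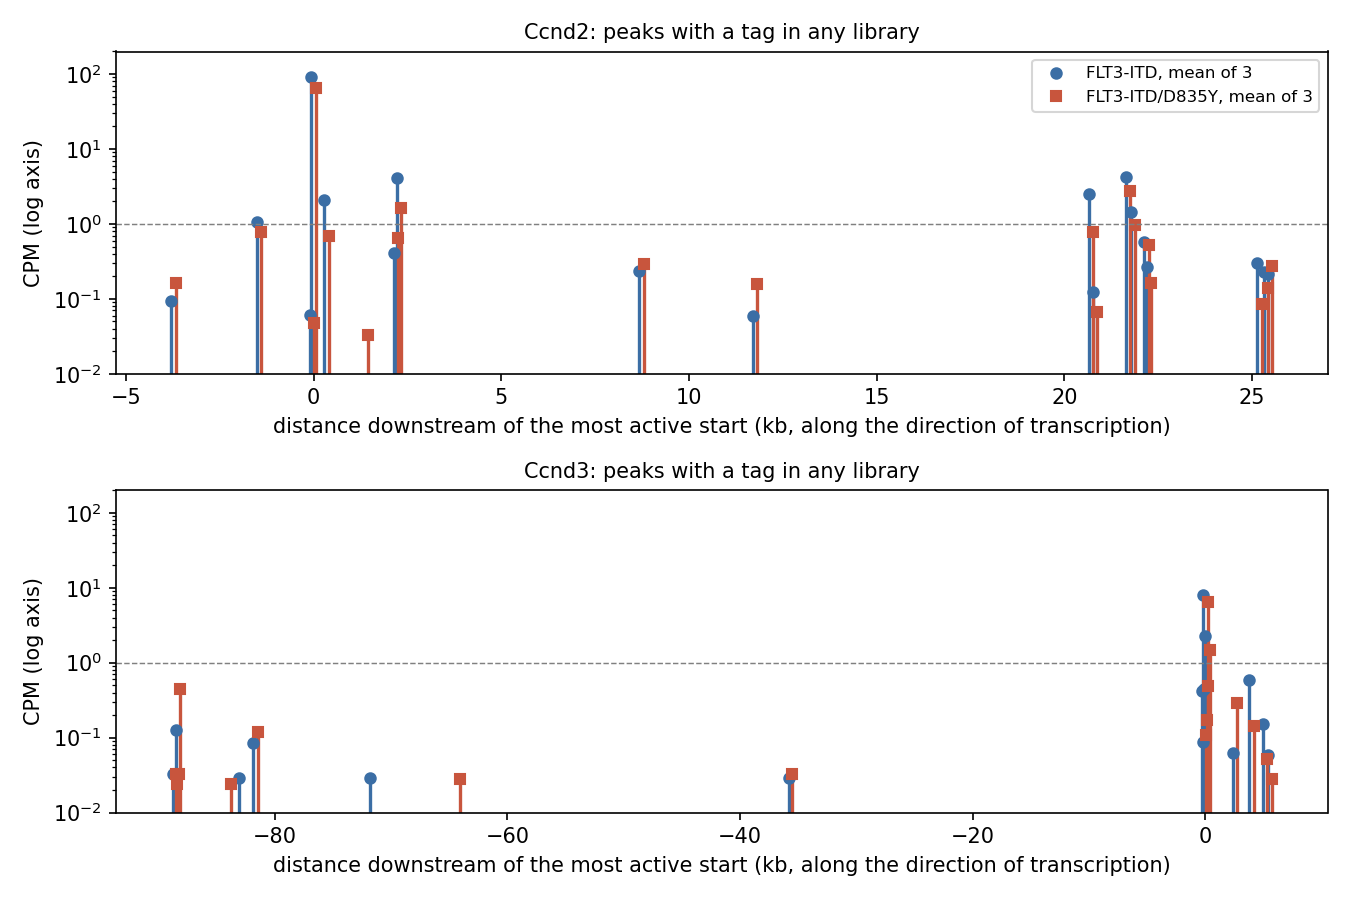
Mean CPM (log axis, n = 3 per group) of every Ccnd2 and Ccnd3 peak with a tag in any library, by distance in kb from the gene's most active start in the direction of transcription; paired symbols are shifted slightly apart, a mean of 0 has no symbol, and the dashed line is 1 CPM. Ccnd2 has 1 start near 100 CPM and a scatter of starts below 5 CPM, and the Ccnd3 starts some 88 kb upstream stay below 1 CPM.

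The share of Ccnd2 tags at its main start varied within both groups. The main start took 87.7%, 80.3% and 82.2% of the Ccnd2 level in the FLT3-ITD libraries and 82.5%, 89.8% and 86.2% in the double-mutant libraries. The groups overlapped, and the difference of 2.72 percentage points was smaller than the SD of either group (3.85 and 3.65). The exact two-sided permutation test gave p = 0.4 (0.6 after adjustment), but it could not have gone below 0.1 and so leaves the question undecided. Outside the main start, the Ccnd2 level was 14.6, 16.0 and 23.2 CPM with FLT3-ITD alone and 11.0, 8.16 and 11.6 CPM in the double mutant. These groups did not overlap, while those of the main start did. Among single tested peaks, 17.6% had groups that did not overlap with FLT3-ITD higher. The level outside the main start includes the peaks at 127100681 and 127080298, which reached the filter only through the FLT3-ITD libraries. This sum was taken after its values were seen and was not tested. Peaks at most 500 bp apart around the main start together held 86.7% of the 5894 pooled Ccnd2 tags, and the group of 4 peaks between 127078772 and 127079336 held 5.77%.

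Ccnd3, the D-type cyclin needed for the expansion of early lymphocytes, used a start deep inside its window. Of its 69 peaks 49 held no tag in any library, 18 had tags but stayed under the filter (at most 1.02 CPM in any library) and 2 were tested. The main start, the 22 bp peak at 47730501 to 47730522 on the plus strand of chromosome 17 (chr17:47730501..47730522,+), held 7.51, 7.31 and 9.21 CPM in FLT3-ITD and 8.56, 5.51 and 5.54 CPM in the double mutant. Double-mutant replicate 1 lay among the FLT3-ITD libraries and the other 2 below them. The difference was -0.28 (log2, SE 0.18, 95% interval -0.68 to 0.12) and did not pass (limma adjusted p = 0.302). The second tested start, 189 bp downstream at 47730690 to 47730701, held 1.95, 1.87 and 2.90 CPM against 2.18, 1.50 and 0.791 CPM (-0.40, limma adjusted p = 0.226), and the groups overlapped.

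The summed level of Ccnd3 was 12.4 ± 1.9 CPM with FLT3-ITD alone and 10.0 ± 2.7 CPM in the double mutant (mean ± SD, n = 3 each). The difference of -0.29 (log2, SE 0.18, 95% interval -0.69 to 0.10) did not pass (limma adjusted p = 0.261), and the exact permutation p was 0.3 (0.6 after adjustment). Under all 18 alternatives it was negative and did not pass, with adjusted p from 0.0784 to 0.590. The main start took 64.9 ± 2.8% of the Ccnd3 level in FLT3-ITD cells and 65.1 ± 2.0% in the double mutant (mean ± SD, n = 3 each), with an exact permutation p of 1.

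The Ccnd3 window holds a start region at its upstream end that was almost unused. The 10 peaks between 47641790 and 47642177 held 23 pooled tags, 3.25% of the 707 Ccnd3 tags, against 631 tags (89.2%) for the 6 peaks between 47730393 and 47730701. The upstream group stood at 0.390, 0 and 0.0877 CPM with FLT3-ITD alone and at 0.755, 0.143 and 0.692 CPM in the double mutant, 5 against 18 pooled tags. The groups overlapped, and no test was made at these few tags. RefSeq (GRCm38.p6) also places 1 Ccnd3 start at the upstream end of the gene and another far downstream. The 250 bases before each are shown because the tags fell almost wholly on 1 of these 2 start regions. The pairing with the peaks is by order along the gene only, since the files use another build. Searched on both strands were 5 motifs: the CCAAT box, the GC box GGGCGG (which reads CCGCCC on the other strand), the cAMP-response core TGACGT, the STAT-type core TTCNNNGAA and the TATA box TATAAA. Capitals mark the matches, which do not overlap. The STAT-type core and the TATA box had none at either start.
Upstream start, chr17:47504801-47505050, plus strand: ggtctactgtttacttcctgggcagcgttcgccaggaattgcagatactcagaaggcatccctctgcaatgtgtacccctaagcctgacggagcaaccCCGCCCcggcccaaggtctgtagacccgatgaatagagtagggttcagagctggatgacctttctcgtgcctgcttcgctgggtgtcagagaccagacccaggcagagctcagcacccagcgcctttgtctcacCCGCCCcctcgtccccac
Downstream start, chr17:47593217-47593466, plus strand: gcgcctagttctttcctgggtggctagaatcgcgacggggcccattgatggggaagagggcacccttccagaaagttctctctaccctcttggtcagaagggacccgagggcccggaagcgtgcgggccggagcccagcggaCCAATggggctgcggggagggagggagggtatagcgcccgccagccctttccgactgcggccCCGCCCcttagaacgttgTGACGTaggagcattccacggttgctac

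The upstream sequence held 11 CpG dinucleotides and the downstream one 19, where the median over 32851 RefSeq promoter windows of that length was 6. The GC box was present at both starts (2 matches upstream and 1 downstream) and in 32.7% of all windows. The CCAAT box and the cAMP-response core each had 1 match at the downstream start and 0 at the upstream start, and were present in 33.9% and 6.47% of all windows. The STAT-type core was present in 7.02% and the TATA box in 12.4%. A match of letters is a description and not a bound site.

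Ccnd2 held most of the D-type cyclin level in every library. Ccnd2 made up 91.5%, 87.5% and 90.0% of the summed D-type cyclin level in the FLT3-ITD libraries and 82.7%, 90.6% and 90.5% in the double-mutant libraries. Double-mutant replicate 1 was lowest, since it had the lowest Ccnd2 level and the highest Ccnd3 level of its group. The difference of -1.72 percentage points was smaller than the SD of either group (2.02 and 4.53), and the exact two-sided permutation p was 0.7 (0.84 after adjustment), where the design allows none below 0.1. All D-type cyclins together held 122.6 ± 27.0 CPM with FLT3-ITD alone and 85.4 ± 8.7 CPM in the double mutant (mean ± SD, n = 3 each), with an exact permutation p of 0.2 (0.6 after adjustment).

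**Figure D3:**
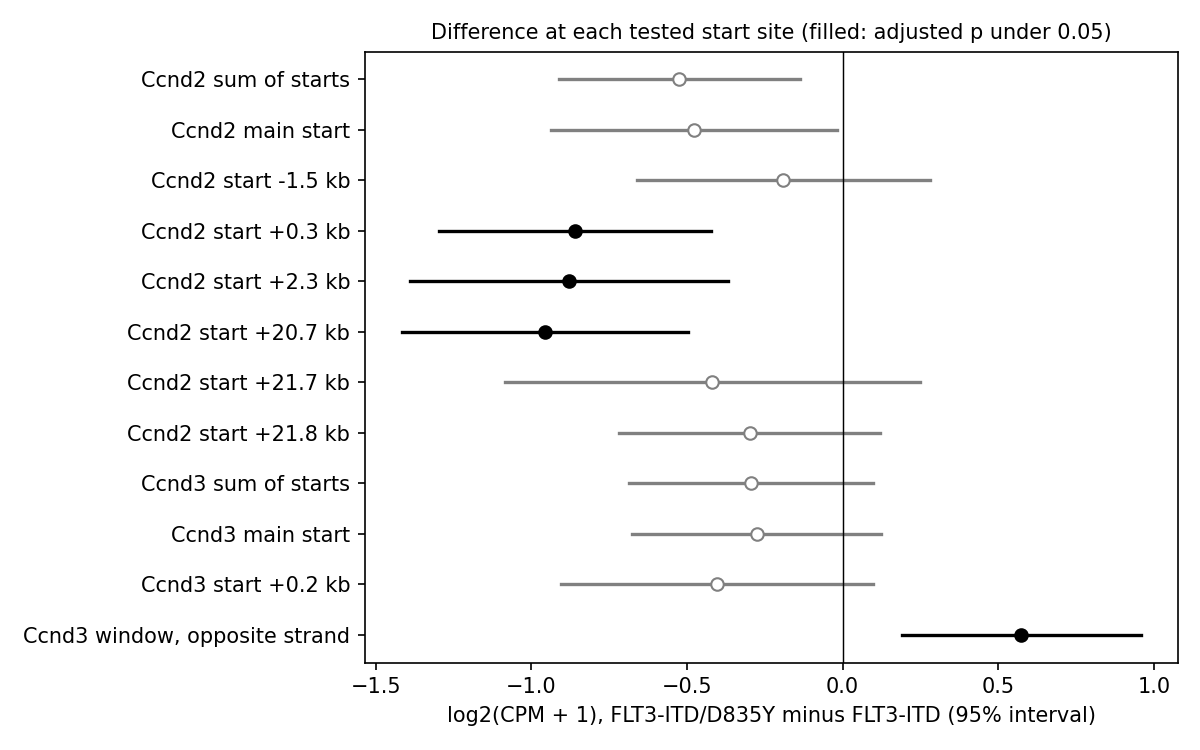
Difference between the double mutant and FLT3-ITD on the log2(CPM + 1) scale, with 95% intervals from limma, for the summed level and each tested start of Ccnd2 and Ccnd3 and for the tested opposite-strand peak of the Ccnd3 window; kb values are distances downstream of the main start. Filled points passed the threshold: 3 lesser Ccnd2 starts lie between -0.96 and -0.86, and the opposite-strand peak lies at 0.57. Of these 3 starts, those at 127100681 and 127080298 reached the filter only through the FLT3-ITD libraries.

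On the opposite strand, 1 peak of the windows passed the filter, and it rose. The minus-strand peak at 47639225 to 47639245, before the upstream start region of Ccnd3, held 13.1, 10.4 and 15.3 CPM in FLT3-ITD and 18.4, 24.8 and 16.2 CPM in the double mutant. The groups did not overlap, which with the double mutant higher held for 24.2% of all tested peaks. The rise of 0.57 (log2, SE 0.18) passed (limma adjusted p = 0.0316), but the call ended in 6 of 16 alternatives, among them without FLT3-ITD replicate 2 (0.44, adjusted p = 0.144) and without double-mutant replicate 2 (0.41, adjusted p = 0.0668). In RefSeq's gene order the next gene on that side is Taf8, which encodes a subunit of the general transcription factor TFIID. The files do not tie the peak to it. None of the 6 opposite-strand peaks of the Ccnd2 window passed the filter.

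Peaks near the cyclin windows were counted within 500000 bp on either side. Over all tested peaks 10.4% were lower and 14.1% higher, with a median of 0.05 (log2). Around Ccnd2, 2 of 7 tested neighbours were lower and 0 higher, with a median of -0.25. The 7 tested Ccnd2 peaks themselves had a median of -0.48, but 2 of them reached the filter only through the FLT3-ITD libraries. Around Ccnd3, 2 of 24 were lower and 1 higher (median 0.06), and around Ccnd1 0 of 5 passed (median 0.16). The part of such neighbours in the Ccnd2 values was not tested.

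**Figure D4:**
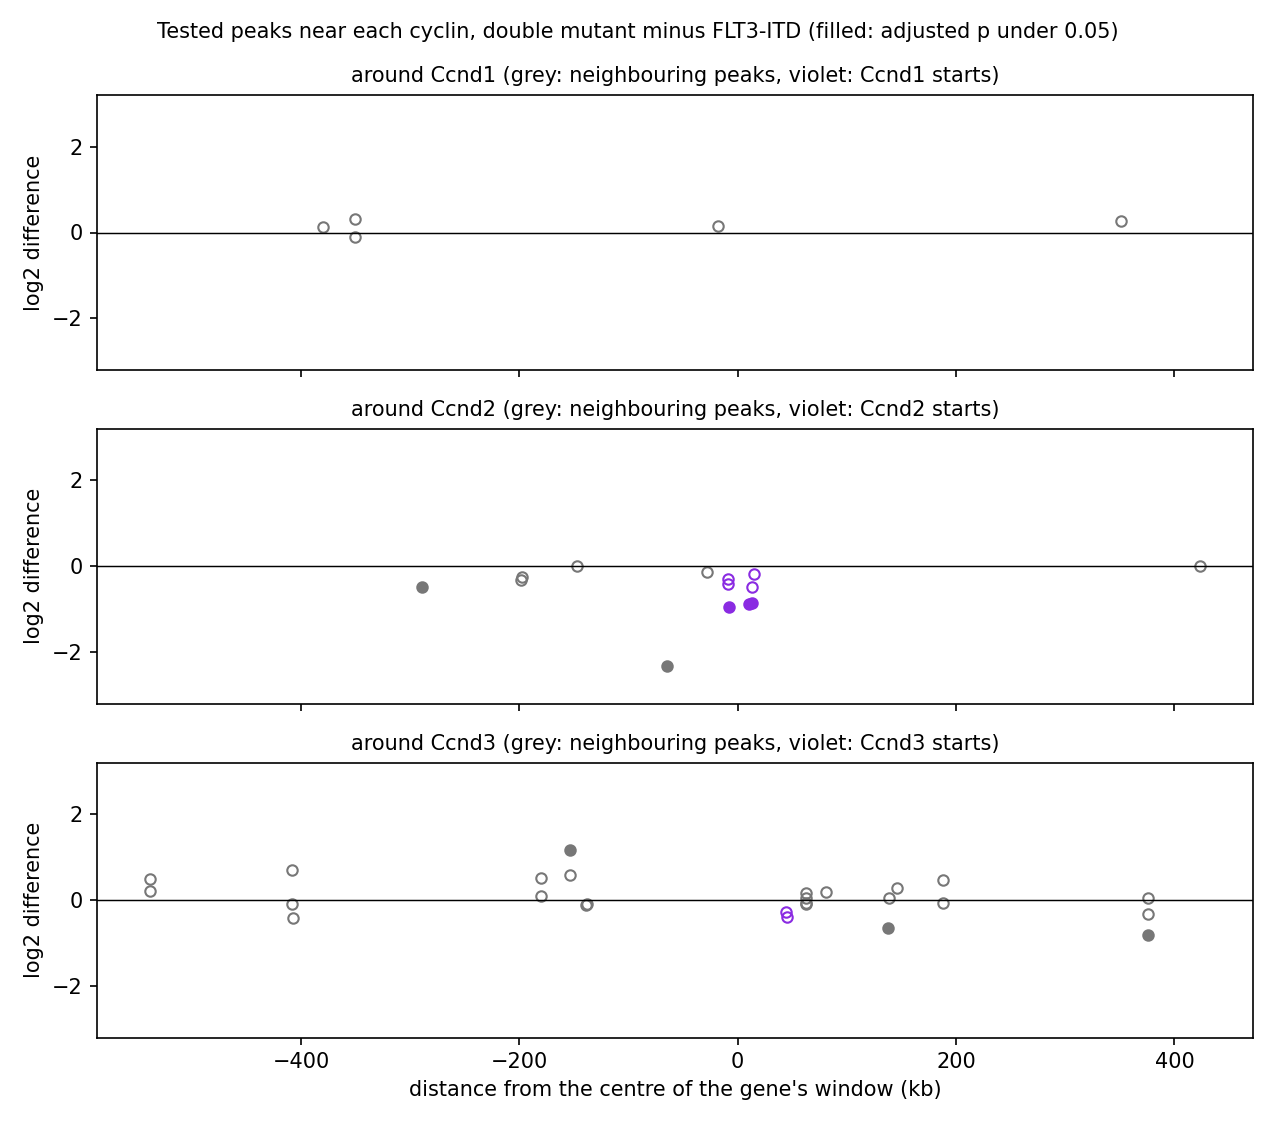
Difference between the double mutant and FLT3-ITD on the log2(CPM + 1) scale for tested peaks of either strand within 500000 bp of each cyclin window, by distance in kb from the window's centre; filled points passed the threshold. The Ccnd2 starts (violet) all lie below 0, as do both neighbours of Ccnd2 that passed and 8566 of all 19162 tested peaks. For the Ccnd2 starts at 127100681 and 127080298 the filter itself fixed this direction.

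The peaks whose pattern over the 6 libraries was most like that of the main Ccnd2 start were weaker ones on other parts of the genome. Likeness was the root-mean-square difference of log2(CPM + 1) after each peak was centred on its own mean. The closest were the minus-strand peaks of chromosome 5 at 130478870 to 130478882 (0.0969), chromosome 6 at 47998855 to 47998863 (0.106) and chromosome 9 at 22193530 to 22193543 (0.110), where the median over all tested peaks was 0.444. The first held 2.44, 1.36 and 2.19 CPM in FLT3-ITD and 0.755, 1.43 and 1.19 CPM in the double mutant. FLT3-ITD replicate 2 lay inside the range of the other group, which a choice by likeness to the main Ccnd2 start favours.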

How the data were processed

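CAGE libraries (nAnT-iCAGE on column-purified total RNA, per the labels' protocols) were compared between 2 groups of 3. Each deposited table gives CPM made by the authors over the same 158966 peaks and sums to 1000000. The submitters' processing notes name TopHat2 2.0.14, edgeR 3.24.3 and the builds hg19 and mm9, with no role. The making of the peak list and any filter on tags are not given in the sources used here, nor is whether starts count from 0 or 1. In every library 100% of the deposited values were whole multiples of 1 step (tolerance 0.01 of a step), which gives the tags.

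The windows, motifs and lists were chosen with earlier results of these data known. All tested peaks plus a summed row for each cyclin with tags were fitted with limma 3.58.1 (trend, robust; R 4.3.3) on log2(CPM + 1). A pseudocount of 1 understates changes of low peaks. Named peaks are the members and opposite-strand peaks past the filter, and the 3 peaks with the closest profile to the main Ccnd2 start. Tests on the tags themselves (DESeq2 1.42.0, edgeR 4.0.16, limma-voom) were alternatives, beside other scalings, pseudocounts, filters, windows and left-out libraries. Single values were tested by exact permutation of libraries. A list of other genes of the pathway (Cdk4, Cdk6, Rb1, Rbl1, E2f1, Ccne1, Ccne2, Cdk2 and the Cdkn1 and Cdkn2 inhibitors) was not analysed here, since no table of the files' build pairs peaks with genes. On simulated data for this comparison (19162 peaks, 1 dispersion of 0.02) the fit recovered 88% of 100 peaks changed by a fold of 2 and 100% of 100 changed by a fold of 4, with 10 false calls. The dispersion was set and not estimated from these libraries, and changed peaks were drawn only from those with a mean above 2 CPM. The recovery therefore does not carry over to peaks with a larger spread or to weaker starts. Those at 127100681 and 127080298 had means of 1.39 and 1.66 CPM over all libraries.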

Additional observations from a re-analysis of the deposited data

How the results depend on the processing

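All refits of the Ccnd2 and Ccnd3 sums and tested starts kept their direction. For the Ccnd2 starts at 127100681 and 127080298 the filter over all 6 libraries had already fixed the direction of the CPM values. Refits with a left-out library kept that filter. For these starts the kept direction and the place among starts called lower are therefore no support. The log2 difference of the Ccnd2 sum was -0.52 and missed the threshold. It passed at -0.58 with TMM and with RLE scaling, -0.51 with a pseudocount of 4, -0.52 with no filter, and -0.60, -0.61 and -0.60 with edgeR, DESeq2 and limma-voom; the cause was not tested. Left-out libraries gave -0.73 (without FLT3-ITD replicate 2, the only one past the threshold) to -0.39 for Ccnd2 and -0.48 to -0.18 for Ccnd3, 3076 to 5206 for the 4678 changed peaks, and 2 to 4 for the 3 cyclin starts called lower. They gave 0.91 to 4.87 percentage points for the share of the main Ccnd2 start, -0.72 to 1.84 for that of Ccnd3 and -3.06 to 0.90 for the share of Ccnd2 among the cyclins. With a mean of at least 5 CPM, 2916 of 10250 peaks changed, and 0 of the 2 cyclin starts left to test passed. Among peaks past the filter only, the share of the main Ccnd3 start differed by 3.55 points, since its total then holds only 2 peaks. Widening the windows by 5000 bp changed no value. With the replicate number as a term (replicate block), 4104 peaks changed, 3 Ccnd2 starts were called lower (2 of them reached the filter only through the FLT3-ITD libraries) and the Ccnd2 sum passed (-0.52, limma adjusted p = 0.0398), while the opposite-strand peak did not (adjusted p = 0.0597). Replicate numbers were not treated as pairs: over tested peaks, deviations from the group mean in libraries of one number had correlations of -0.0053, 0.019 and 0.19, and FLT3-ITD replicate 1 correlated best with another number. Depth limits the lesser starts, which rest on 24 to 126 pooled tags a group.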
